A study of Mus musculus with 12 samples.

Results

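Genes of glucocorticoid action, 9 in all, were followed in mouse cecum: the glucocorticoid receptor gene Nr3c1, the enzyme genes Hsd11b1 and Hsd11b2, and 6 genes that glucocorticoids are known to induce, Fkbp5, Tsc22d3, Sgk1, Dusp1, Pdk4 and Angptl4. The members were chosen by gene name, and every probe of them was used, which gave 9 of the 37074 gene names and 15 of the 56605 probes on the array. RNA from cecum tissue of C57BL/6 mice, whose age is not given in the sources used here, was hybridised to 12 one-colour arrays, 1 per mouse. The array methods do not say how much of the cecum was taken. A sham operation was given to 3 mice, and 3 mice each were sampled at 3, 12 and 72 h after the cecum had been injured with bipolar forceps (cauterization), a model of postoperative adhesion; all were operated under pentobarbital anaesthesia. The methods place the sham cecum at the start of the time course while the labels can be read as a sham operation at each time, so the cauterization cannot be told apart from the time since anaesthesia and surgery or from the time of day.

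Cortisol and corticosterone bind the glucocorticoid receptor, which is held in the cytoplasm by HSP90 and its co-chaperones until hormone arrives, and which then enters the nucleus and acts at glucocorticoid response elements. Tissue enzymes set how much active hormone the receptor sees: 11β-HSD1, from Hsd11b1, regenerates active corticosterone from its inert 11-keto form with NADPH that H6PD supplies, while 11β-HSD2, from Hsd11b2, inactivates the hormone in aldosterone target cells such as colonic epithelium. The induced genes include inhibitors of inflammatory signalling (Tsc22d3, Dusp1), a brake on the receptor itself (Fkbp5) and regulators of salt and fuel handling (Sgk1, Pdk4, Angptl4), and many of them also answer to other signals such as cytokines, growth factors, hypoxia and fasting.

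Values are given as the log2 of the processed probe signal minus the 75th percentile of its array, so a difference of 1 is a 2-fold change and a level of 0 lies at the 75th percentile. The main probes lie, in mm9 as the array's annotation gives it, at chr1:195048169-195048228 (Hsd11b1), chr17:28536060-28536119 (Fkbp5), chrX:137074094-137074153 (Tsc22d3), chr10:21719390-21719449 (Sgk1), chr17:26642624-26642683 (Dusp1), chr6:5433441-5433500 (Pdk4) and chr17:33911880-33911939 (Angptl4), and that of Hsd11b2 spans chr8:108046785-108047002. Levels of different probes are not comparable, so changes of genes are read from differences of 1 probe between groups. Marker sums and the Hsd11b1 minus Hsd11b2 difference combine probes and are read only between arrays. In a marker sum the brightest probes weigh most. A gene was called when it changed by more than 2-fold with a Benjamini-Hochberg adjusted p under 0.05 in a limma fit to all probes and all 4 groups; errors of fold changes are standard errors with n = 3 mice a group. The 3 comparisons with sham share the same 3 sham arrays. In the arrays, 60.2% to 65.2% of probes were well above background, no spot was saturated, and no 2 arrays held identical values. The labels call the mice male, but the probe of Xist, an RNA of the inactive X chromosome, was detected above background on each of the 12 arrays, both probes of Ddx3y and both of Eif2s3y were on 0 arrays, 1 of 3 Uty probes was on 1 array and 1 of 6 Kdm5d probes was on 12 arrays with the other 5 on 0. The 3 sham arrays, the 3 arrays of 3 h and 12 h replicates 1 and 2 lay on slide 1. On slide 2 lay 12 h replicate 3 and the 3 arrays of 72 h, so slide and the 72 h group are largely confounded. Only 12 h has arrays on both slides. A slide block is thus set by 12 h replicate 3 against the other arrays of 12 h.

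Promoter sequences are shown for the members whose 300-base windows around a start site (RefSeq, GRCm38.p6) held a complete palindromic glucocorticoid response element or a complete cAMP response element. Windows were found for 6 of the 9 members and 13 start sites in all; none was found for Nr3c1, Hsd11b2 and Angptl4. Both strands were searched for AGAACA, 3 bases and TGTTCT (the response element), for one arm of it, AGAACA, for TGACGTCA (the cAMP response element, bound by CREB) and for AGGTCA, 1 base and AGGTCA (a direct repeat bound by PPAR). The complete glucocorticoid response element occurs in 3 of 32851 windows of all genes (0.00913%), the single arm, which the complete element contains, in 19%, the cAMP response element in 1.79% and the direct repeat in 0.0396%. The 250 bases before the start sites are printed 5′ to 3′ on the gene's strand, with the match in capitals: the glucocorticoid response element of Sgk1 at chr10:21993640-21993889 (plus strand), whose first base lies at -189 from the start, and the cAMP response element of Dusp1 at chr17:26508473-26508722 (minus strand), whose first base lies at -143.
Sgk1: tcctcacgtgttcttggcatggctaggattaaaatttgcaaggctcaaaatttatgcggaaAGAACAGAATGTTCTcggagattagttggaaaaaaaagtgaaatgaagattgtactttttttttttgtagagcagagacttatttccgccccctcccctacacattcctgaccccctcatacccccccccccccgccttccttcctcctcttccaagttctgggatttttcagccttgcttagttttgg
Dusp1: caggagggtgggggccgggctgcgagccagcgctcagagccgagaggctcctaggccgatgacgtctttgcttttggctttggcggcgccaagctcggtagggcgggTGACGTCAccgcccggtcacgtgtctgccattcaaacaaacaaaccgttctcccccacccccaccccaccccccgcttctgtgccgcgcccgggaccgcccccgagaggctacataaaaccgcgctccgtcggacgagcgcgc
The single arm occurred in 3 of the 6 Sgk1 windows and 1 of the 3 Tsc22d3 windows. No motif was matched in the windows of Hsd11b1, Fkbp5 and Pdk4, which says only that these letters are not in those windows. The 2 genes printed hold different elements. Sgk1, with the complete glucocorticoid response element in 1 of its 6 windows, fell. Dusp1, with the cAMP response element and no AGAACA arm in its window, rose, as described below.

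At 3 h, 3 members rose (Dusp1, Angptl4 and Fkbp5) and 1 fell (Pdk4). Over all genes, 3.26% were called higher and 4.11% lower at 3 h. At 12 h, Dusp1, Angptl4 and Hsd11b1 rose while Pdk4 and Sgk1 fell, against 4.1% of all genes called higher and 4.96% lower. The same 3 genes rose and the same 2 fell at 72 h, when 4.55% of all genes were higher and 4.3% lower. All 9 members have a probe well above background on all 12 arrays, and among the 23849 genes well above background on all arrays of at least 1 group 10.3%, 12.5% and 11.5% were called in either direction at 3, 12 and 72 h. The arrays of the injured group did not overlap the sham arrays for 8 members at 3 h, 7 at 12 h and 9 at 72 h. Such a gap to sham was found in 49.7%, 51.2% and 50.8% of all genes well above background. With the slide as a block, Hsd11b1, Dusp1, Pdk4 and Angptl4 stayed called at 72 h with changes of 2.45, 2.93, -1.81 and 3.30 (adjusted p of 0.0186, 0.00528, 0.043 and 0.026), and Sgk1 did not. The median change of the 9 members was 0.60, -0.03 and -0.31, beside 0.08, -0.01 and -0.14 over all genes and 0.06, -0.02 and -0.15 over all probes. Relative to the median of all probes at 72 h, the small differences of Nr3c1 and Fkbp5 given below would be -0.22 and -0.48. The background counts depended on the scaling: 1209 genes higher and 1523 lower at 3 h became 631 and 207 after normexp background correction, 1521 and 1839 at 12 h became 825 and 502, and 1687 and 1595 at 72 h became 870 and 388, or 1851 and 1098 after quantile normalization.

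**Figure D1:**
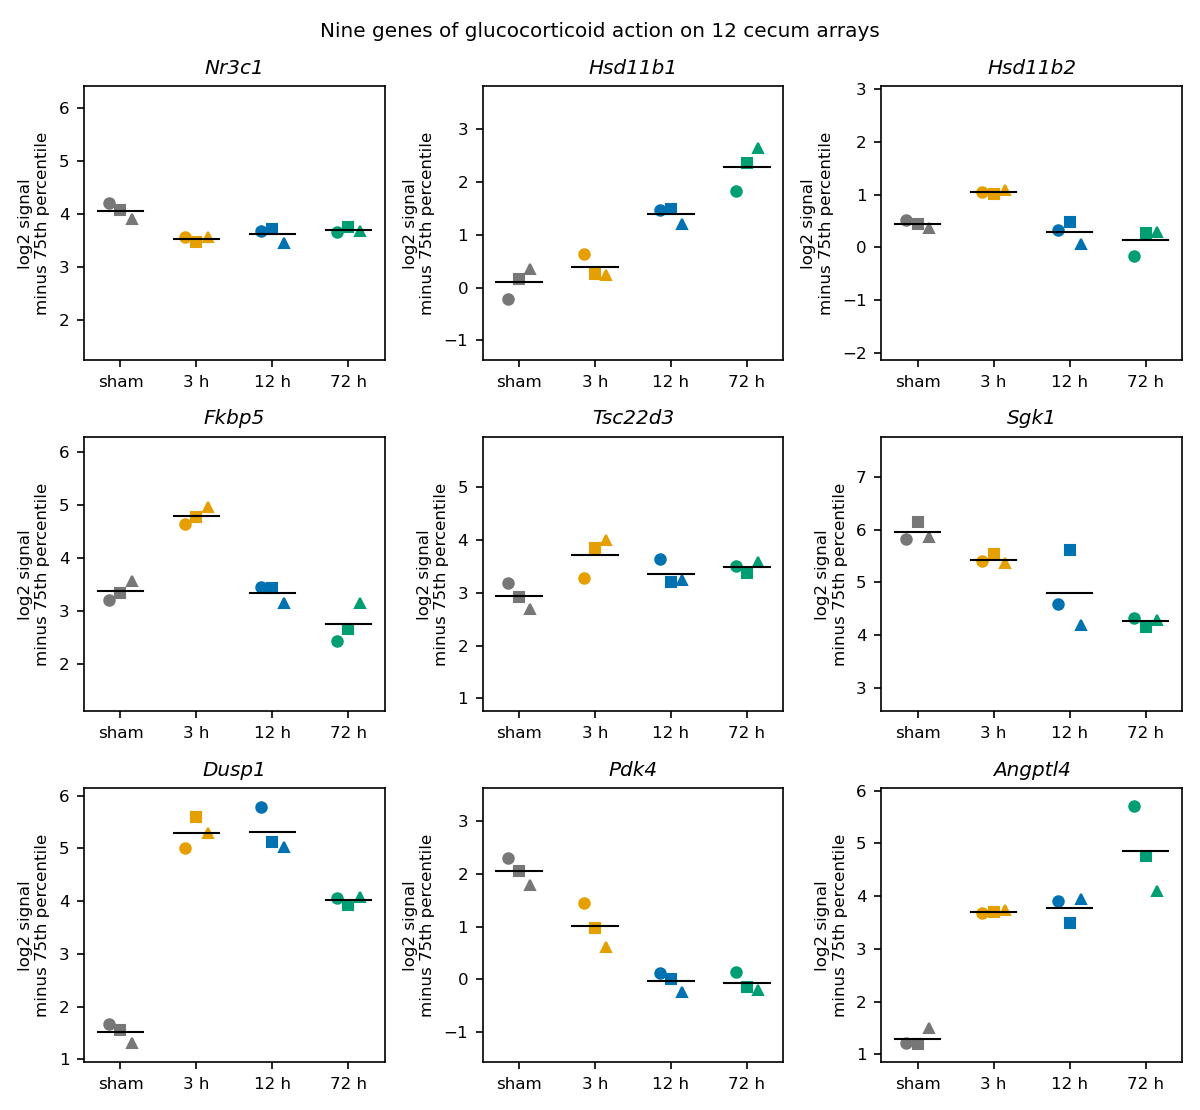
Log2 signal minus the array's 75th percentile of the main probe of each gene (y axis, the same span in each panel) by group (x axis); each point is 1 mouse, with circles, squares and triangles for replicates 1, 2 and 3, and the bar is the mean of 3. Dusp1 and Angptl4 lie above sham at every time, Fkbp5 stands out at 3 h, Hsd11b1 at 12 h and 72 h, and Pdk4 lies below sham at every time.

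The receptor gene Nr3c1, which encodes the nuclear receptor for glucocorticoids, had levels of 4.20, 4.08 and 3.91 in sham cecum. Its levels were 3.56, 3.48 and 3.56 at 3 h, 3.68, 3.72 and 3.45 at 12 h, then 3.65, 3.75 and 3.67 at 72 h. All 9 injured arrays lay below all 3 sham arrays, but by less than 2-fold, so the gene was called at no time. The log2 differences from sham were -0.53 ± 0.11 at 3 h (limma adjusted p = 0.00932), -0.44 ± 0.11 at 12 h (adjusted p = 0.0187) and -0.37 ± 0.11 at 72 h (adjusted p = 0.0434). Its second probe gave -0.43, -0.29 and -0.50, with adjusted p of 0.0412, 0.148 and 0.0203. In RNA of a tissue, fewer cells of a type and less RNA per cell cannot be told apart, for this gene and for those that follow. With the slide as a block, the difference at 72 h was -0.12 (adjusted p = 0.747), and after quantile normalization it was -0.26 (adjusted p = 0.0948).

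Of the 12 other genes of the receptor and its chaperones, 2 rose at 3 h and the same 2 at 12 h, and 0 were called by limma at 72 h, where 1 was higher and 4 lower at an unadjusted p under 0.05 whatever the fold. Hsp90aa1, the inducible HSP90 that holds the receptor ready for hormone, rose by 1.60 ± 0.21 at 3 h and 1.09 ± 0.21 at 12 h on the log2 scale (adjusted p = 0.000744 and 0.00437). Hspa8, the constitutive HSP70 that loads the receptor onto HSP90, rose by 1.01 ± 0.15 and 1.05 ± 0.15. The median of the list was 0.19, 0.14 and -0.14 at the 3 times. Beside this list and those below, 10.3%, 12.5% and 11.5% of genes well above background were called either way at 3, 12 and 72 h. These shares are for called genes. How many of all genes had an unadjusted p under 0.05 was not counted, for this list and those below. The mineralocorticoid receptor gene Nr3c2 differed from sham by -0.91 at 72 h (adjusted p = 0.00573), short of 2-fold.

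Hsd11b1, whose enzyme regenerates active glucocorticoid inside cells, rose late. Its levels were -0.21, 0.17 and 0.35 in sham and 0.65, 0.27 and 0.23 at 3 h, and these groups overlapped. At 12 h they were 1.47, 1.49 and 1.21, and at 72 h 1.82, 2.36 and 2.65, so that each of these groups lay wholly above the one before. Against sham the gene was 1.21-fold at 3 h (log2 difference 0.28 ± 0.23, adjusted p = 0.409), 2.44-fold at 12 h (1.28 ± 0.23, adjusted p = 0.00297) and 4.51-fold at 72 h (2.17 ± 0.23, adjusted p = 0.000217). The step from 3 h to 12 h was itself called at 1.01 ± 0.23 (adjusted p = 0.0243), where 1.89% of all genes were called higher and 1.56% lower. The step from 12 h to 72 h was 0.89 ± 0.23 (adjusted p = 0.0227), short of 2-fold. H6pd, which makes the NADPH that drives 11β-HSD1 in the reductive direction, rose 2.68-fold at 72 h (1.42 ± 0.17, adjusted p = 0.000508).

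Hsd11b2, whose enzyme inactivates glucocorticoid, went another way. Its levels were 0.51, 0.45 and 0.37 in sham and 1.05, 1.01 and 1.08 at 3 h, with no overlap. The difference at 3 h was 0.60 ± 0.15 on the log2 scale or 1.52-fold (adjusted p = 0.0175), below the 2-fold threshold. At 12 h the levels of 0.33, 0.47 and 0.07 overlapped sham, and at 72 h they were -0.16, 0.28 and 0.28, all below the lowest sham array, with differences of -0.15 ± 0.15 (adjusted p = 0.546) and -0.31 ± 0.15 (adjusted p = 0.173). With the slide as a block the difference at 72 h was 0.02 (adjusted p = 0.973). The step from 3 h to 12 h was -0.76 ± 0.15 (adjusted p = 0.0134), short of 2-fold. The summed level of 10 epithelial markers, all detected on all 12 arrays, moved alongside: it ranged from 1859 to 2062 times the 75th percentile in sham, 2523 to 2776 at 3 h, 1827 to 2263 at 12 h and 1002 to 1380 at 72 h, and its part in the Hsd11b2 values was not tested.

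On each array the difference between the Hsd11b1 and the Hsd11b2 probe was taken, since array scaling cancels in it. It was -0.34 ± 0.36 in sham (SD, n = 3), -0.67 ± 0.23 at 3 h, 1.10 ± 0.07 at 12 h and 2.14 ± 0.20 at 72 h. Relative to sham it shifted by -0.33 at 3 h (two-sided exact permutation p = 0.2), 1.44 at 12 h (exact p = 0.1) and 2.48 at 72 h (exact p = 0.1). With 3 mice against 3, 0.1 is the smallest p that this test can give. The 3 arrays of 12 h and of 72 h all lay above the 3 sham arrays.

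**Figure D2:**
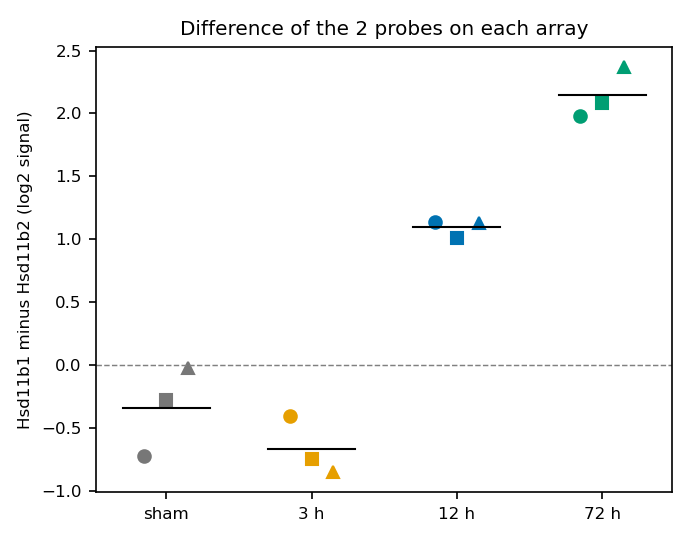
Hsd11b1 minus Hsd11b2 log2 signal on each array (y axis) by group (x axis); points are mice, with circles, squares and triangles for replicates 1, 2 and 3, bars are means of 3, and the dashed line marks 0. The means run from -0.34 in sham and -0.67 at 3 h to 1.10 at 12 h and 2.14 at 72 h; the height of 0 has no meaning, as the probes differ in sensitivity.

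The list of corticosteroid synthesis and metabolism held 16 other genes, 12 of them well above background on all arrays of at least 1 group at 3 h. At 3 h 1 rose and 2 fell, at 12 h 0 rose by limma (1 higher at an unadjusted p under 0.05) and 4 fell, and at 72 h 2 rose and 4 fell. Cyp11a1, which makes the first cut in cholesterol toward steroids, rose by 1.39 ± 0.30 at 3 h (adjusted p = 0.00958), and Star, which carries cholesterol to it, rose by 1.29 ± 0.23 at 72 h (adjusted p = 0.00424). Cyp11b1, the last enzyme of corticosterone synthesis, and Cyp11b2 were not well above background on any sham, 3 h, 12 h or 72 h array. Nr5a2, a nuclear receptor that drives intestinal steroid synthesis, fell by 1.14 at 3 h and by 1.20 at 72 h. Nr0b2 was well above background in sham alone, on 3 arrays, which makes it at least 1.38-fold, 1.64-fold and 1.83-fold lower at 3, 12 and 72 h (fitted changes of -2.14, -2.73 and -2.79, adjusted p of 0.00404, 0.000854 and 0.001); the bound sets the sham mean against the lowest signal well above background, or the dim probe's own signal where higher. Of the efflux pumps that export glucocorticoids, Abcb1a fell by 1.84 at 12 h and by 1.75 at 72 h, and Abcb1b fell by 1.50 at 12 h and by 1.63 at 72 h. Hsd3b1, a further enzyme of steroid synthesis, fell by 1.15 at 12 h.

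Fkbp5, which encodes FKBP51, a co-chaperone that lowers the hormone affinity of the receptor, was raised only at 3 h among the 3 times. Its levels were 3.21, 3.34 and 3.56 in sham and 4.64, 4.78 and 4.96 at 3 h, followed by 3.44, 3.42 and 3.15 at 12 h, then 2.43, 2.66 and 3.15 at 72 h. The 3 h arrays lay above all others and the 72 h arrays below all sham arrays. The gene rose 2.67-fold at 3 h (1.42 ± 0.19, adjusted p = 0.000853), differed by -0.03 ± 0.19 at 12 h (adjusted p = 0.952) and by -0.63 ± 0.19 at 72 h (adjusted p = 0.04, short of 2-fold), which was -0.35 with the slide as a block (adjusted p = 0.583). The fall from 3 h to 12 h was called at -1.45 ± 0.19 (adjusted p = 0.00239). A second probe gave 1.33 at 3 h and -1.47 from 3 h to 12 h (adjusted p = 0.000257 and 0.000873). The remaining probe, of another transcript, was well above background on only 6 of 12 arrays and was called nowhere.

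Tsc22d3 encodes GILZ, a leucine zipper protein that restrains NF-κB and AP-1. Its levels were 3.19, 2.91 and 2.70 in sham, 3.27, 3.85 and 4.01 at 3 h, 3.65, 3.20 and 3.24 at 12 h, then 3.50, 3.38 and 3.58 at 72 h. Every injured array lay above every sham array, but no change reached 2-fold. The differences were 0.78 ± 0.21 (adjusted p = 0.0274), 0.43 ± 0.21 (adjusted p = 0.189) and 0.55 ± 0.21 (adjusted p = 0.0907). A second probe of the same transcript gave 0.77, 0.71 and 0.28 (adjusted p of 0.0229, 0.0305 and 0.378), and the remaining probe, of another transcript, was well above background on 0 arrays.

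Dusp1, a phosphatase that switches off p38 and JNK, had the largest change of the 9 members at 3 h and 12 h. Its levels were 1.67, 1.55 and 1.31 in sham, 5.01, 5.59 and 5.30 at 3 h, 5.78, 5.13 and 5.03 at 12 h, then 4.06, 3.92 and 4.08 at 72 h. All 9 injured arrays stood far above the highest sham array. The gene rose 13.8-fold at 3 h (3.79 ± 0.21, adjusted p = 9.23e-06), 13.9-fold at 12 h (3.80 ± 0.21, adjusted p = 6.68e-06) and 5.69-fold at 72 h (2.51 ± 0.21, adjusted p = 6.43e-05). Between 12 h and 72 h it fell by 1.29 ± 0.21 (adjusted p = 0.003), where 4.33% of all genes were called higher and 3.19% lower. With the slide as a block this last step was -1.01 (adjusted p = 0.088), while the changes from sham remained called.

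Sgk1, a kinase that keeps sodium channels at the cell surface and is a classical glucocorticoid-induced gene, fell. Its levels were 5.83, 6.15 and 5.86 in sham, 5.40, 5.54 and 5.36 at 3 h, 4.59, 5.62 and 4.19 at 12 h, then 4.33, 4.16 and 4.29 at 72 h. Every injured array lay below every sham array, and 12 h replicate 2 stood well above both other arrays of its group. The differences were -0.51 ± 0.29 at 3 h (adjusted p = 0.231), -1.15 ± 0.29 at 12 h (adjusted p = 0.0187) and -1.69 ± 0.29 at 72 h (adjusted p = 0.0032), or 2.22-fold and 3.22-fold lower at the later times. The call at 12 h was lost without sham replicate 2 (adjusted p = 0.0699), without 12 h replicate 1 (adjusted p = 0.068) and without 12 h replicate 3, when the difference was -0.84 (adjusted p = 0.0479). With the slide as a block the difference at 12 h is the same fit as that without 12 h replicate 3. The blocked difference at 72 h was -0.77 (adjusted p = 0.319) and was not called. It rests on the gap between 12 h replicate 3 and the other arrays of 12 h, of which replicate 2 stood high. A second probe, of another transcript, was well above background on 0 arrays. The summed level of 7 smooth muscle markers, all detected on all arrays, also lay below sham. It was 548 to 583 in sham and 298 to 361 at 3 h. At 12 h it was 173 to 276 and at 72 h 201 to 265. Within 12 h it was 173, 184 and 276 on replicates 1, 2 and 3, highest where Sgk1 was lowest. The part of smooth muscle in the fall of Sgk1 was not tested.

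Among 11 genes of sodium and chloride transport on which SGK1 or aldosterone act, 1 rose at 3 h and 0 later by limma (0 also at an unadjusted p under 0.05), and 0, 3 and 5 fell at 3, 12 and 72 h (2, 6 and 8 at that unadjusted p). Scnn1g, the γ subunit of the epithelial sodium channel, rose by 3.13 ± 0.43 at 3 h (8.74-fold, adjusted p = 0.00103). The chloride exchanger gene Slc26a3 fell by 1.81 at 12 h and by 1.59 at 72 h, and the chloride channel gene Cftr fell by 1.08 and by 1.23. The potassium channel gene Kcnma1 fell by 1.11 at 12 h. At 72 h the sodium/hydrogen exchanger gene Slc9a3 fell by 5.69 ± 0.64 (51.8-fold, adjusted p = 0.00035). The list medians were 0.07, -0.51 and -0.70, and the lower epithelial marker sum at 72 h given above moved in the same direction; its part was not tested.

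Pdk4, a kinase that blocks entry of pyruvate into the citric acid cycle and spares glucose, fell at each time. Its levels were 2.30, 2.06 and 1.79 in sham, 1.44, 0.98 and 0.61 at 3 h, 0.12, 0.01 and -0.24 at 12 h, then 0.14, -0.15 and -0.19 at 72 h. No injured array reached the lowest sham array, and the 12 h and 72 h arrays lay below all 3 h arrays. The falls were 2.06-fold at 3 h (-1.04 ± 0.22, adjusted p = 0.00843), 4.25-fold at 12 h (-2.09 ± 0.22, adjusted p = 0.000158) and 4.33-fold at 72 h (-2.12 ± 0.22, adjusted p = 0.000195). The fall at 3 h lay close to the 2-fold threshold and was -0.91 without sham replicate 1 and -0.84 without 3 h replicate 3, so not called. From 3 h to 12 h it fell further by 1.05 ± 0.22 (adjusted p = 0.0171), and from 12 h to 72 h it differed by -0.03 (95% interval -0.51 to 0.45). The smooth muscle marker sums given above fell at the same times, and their part was not tested.

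Angptl4, a secreted inhibitor of lipoprotein lipase, rose while Pdk4, which shares its induction by PPARs and glucocorticoids, fell. Its levels were 1.21, 1.20 and 1.50 in sham, 3.68, 3.69 and 3.73 at 3 h, 3.90, 3.50 and 3.95 at 12 h, then 5.70, 4.76 and 4.09 at 72 h. All injured arrays lay far above the highest sham array, and the spread was widest at 72 h. The gene rose 5.28-fold at 3 h (2.40 ± 0.32, adjusted p = 0.00097), 5.58-fold at 12 h (2.48 ± 0.32, adjusted p = 0.00057) and 11.7-fold at 72 h (3.55 ± 0.32, adjusted p = 0.000103). The step from 12 h to 72 h was 1.07 ± 0.32 (adjusted p = 0.0469), and leaving out any 1 of 11 of the 12 arrays, all but 72 h replicate 3, took it out of the call. Markers of fat cells, which express Angptl4 strongly, stood apart at 72 h: the summed level of 9 of them was 260, 112 and 9.07 times the 75th percentile on replicates 1, 2 and 3, in the order of the Angptl4 levels, against 25.0 to 52.8 in sham, 12.4 to 21.0 at 3 h and 7.25 to 16.3 at 12 h. The marker sums of endothelium (21.9, 14.2 and 9.41, with 9.14 to 9.89 in sham), mesothelium (12.6, 5.18 and 4.71, with 2.13 to 2.82 in sham) and fibroblasts shared that order at 72 h. Adipoq, Plin1 and Cfd were well above background on all 3 sham arrays but on 2 of 3 at 72 h. Probe by probe, 0 of the 9 fat cell markers were called higher than sham at 72 h and 1 lower, with a median change of 0.004. With 72 h replicate 3 as the only array of its group, a choice made after the marker sums were seen, and a spread taken from the other groups, the difference of Angptl4 from sham was 2.79 (adjusted p = 0.000488) and its step from 12 h was 0.31 (adjusted p = 0.527). The part of these cell types in the Angptl4 values was not tested.

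**Figure D3:**
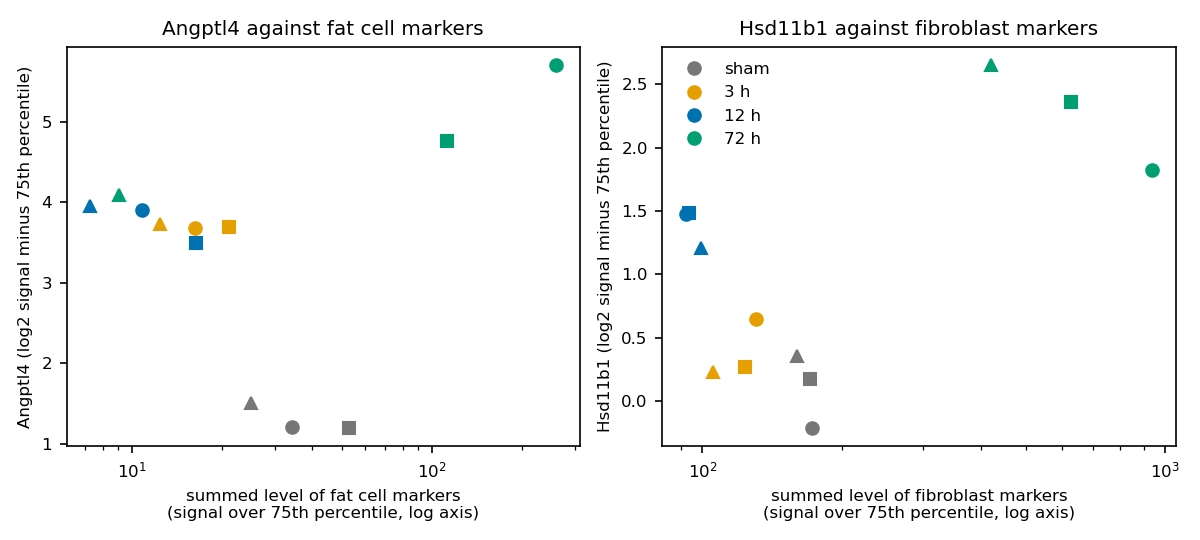
Log2 level of Angptl4 against the summed level of 9 fat cell markers (left) and of Hsd11b1 against that of 6 fibroblast markers (right), as signal over the 75th percentile on a log axis; each point is 1 array, coloured by group, with circles, squares and triangles for replicates 1, 2 and 3. At 72 h Angptl4 and the fat cell sum share their order over the 3 arrays, whereas at 3 h and 12 h Angptl4 is high with fat cell sums below those of sham; Hsd11b1 and the fibroblast sum run in opposite order at 72 h.

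The 6 fibroblast markers, all detected on all arrays, summed to 160 to 172 in sham, 106 to 130 at 3 h, 92.0 to 99.3 at 12 h and 420 to 940 at 72 h. Hsd11b1 was raised at 12 h, when this sum was below that of sham, and at 72 h, when it was above. Within 72 h the fibroblast sums were 940, 626 and 420 on replicates 1, 2 and 3, while Hsd11b1 levels were 1.82, 2.36 and 2.65. The 7 macrophage markers summed to 33.3 to 34.7 in sham, 25.2 to 29.4 at 3 h, 35.2 to 36.6 at 12 h and 97.4 to 104 at 72 h, and the 9 neutrophil markers to 80.9 to 92.1 in sham, 360 to 599 at 3 h, 822 to 860 at 12 h and 348 to 635 at 72 h. Probe by probe, the neutrophil markers had median log2 changes of 3.61, 6.06 and 2.66 at 3, 12 and 72 h. Csf3r went the other way at 3 h, by -0.44, and the lowest marker changes at 12 h and 72 h were -0.34 and -0.40. The part of these cell types in the changes of the members was not tested.

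**Figure D4:**
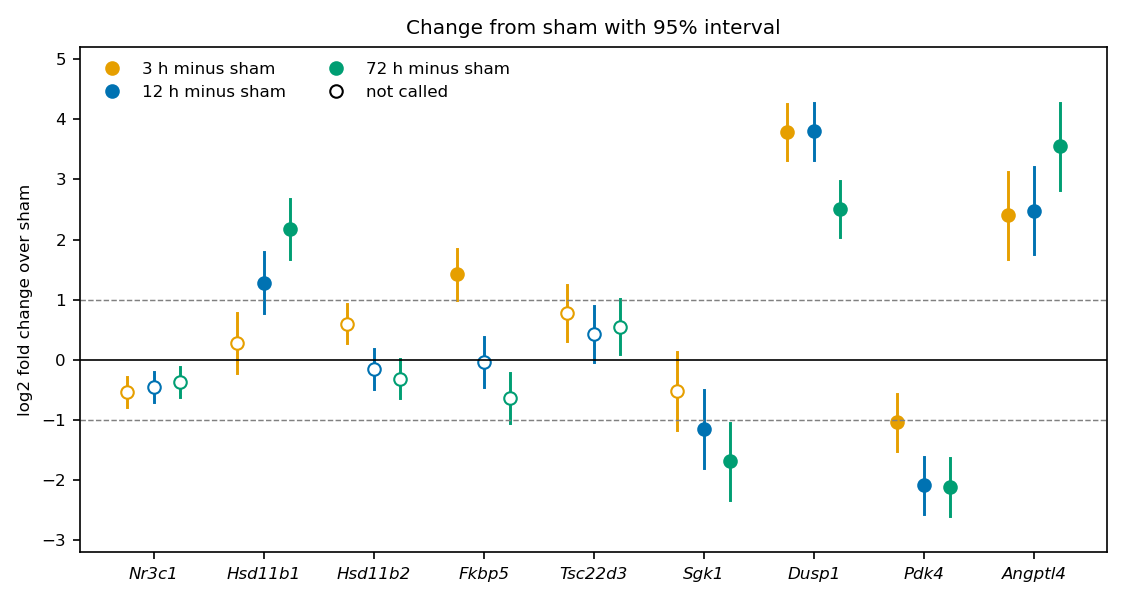
Log2 fold change over sham (y axis) of the main probe of each gene (x axis) at 3, 12 and 72 h, with the limma 95% interval as a line; filled points are called, open points are not, and the dashed lines mark 2-fold. Dusp1 and Angptl4 are called higher and Pdk4 lower at all 3 times, Fkbp5 higher at 3 h, Hsd11b1 higher and Sgk1 lower at 12 h and 72 h, and Nr3c1, Hsd11b2 and Tsc22d3 at no time.

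Of 27 other genes known to be induced by glucocorticoids, 12 rose and 1 fell at 3 h, 11 rose and 2 fell at 12 h, and 8 rose and 2 fell at 72 h; the medians were 0.87, 0.55 and 0.46. The list's largest changes at 3 h were Il1r2, the decoy receptor for IL-1, at 31.9-fold, the transcription factor genes Cebpd at 10.4-fold and Cebpb at 5.71-fold, and Mt2, a metallothionein, at 7.90-fold. Il1r2 is also strongly expressed by neutrophils, most of whose markers were raised at the same times, and the part of these cells was not tested. At 12 h Il1r2, Cebpb, Cebpd and Anxa1 stood at log2 changes of 6.29, 3.25, 2.59 and 2.53. At 72 h Il1r2, Cebpb, Cd163 and Cebpd stood at 5.39, 2.86, 2.17 and 2.01. The macrophage marker sum given above was also raised at 72 h, and its part in the Cd163 change was not tested. Against this direction, Mertk, a receptor for the uptake of dying cells, fell by 1.03 at 3 h. The sulfotransferase gene Sult1a1 fell by 2.36 at 12 h and by 2.15 at 72 h. Klf15, a transcription factor of amino acid catabolism, fell by 1.50 at 12 h, and the carboxypeptidase gene Cpm fell by 1.20 at 72 h.

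Of 22 genes of fatty acid oxidation and PPAR action, 0 rose by limma at any of the 3 times and 2, 4 and 5 fell. Among all genes well above background, 10.3%, 12.5% and 11.5% were called either way. At an unadjusted p under 0.05, 3, 2 and 2 of the 22 were higher and 4, 10 and 15 lower. The share of all genes past that unadjusted threshold was not counted, so these counts have no background beside them. The list medians were -0.09, -0.50 and -0.56. Ppara, the receptor that drives fatty acid oxidation, fell by 1.43 at 3 h, by 1.67 at 12 h and by 1.11 at 72 h (adjusted p of 0.00194, 0.000618 and 0.00647). The hormone-sensitive lipase gene Lipe fell by 1.23 at 3 h. The coactivator gene Ppargc1a fell by 1.71 at 12 h. Acaa2, the last enzyme of mitochondrial β-oxidation, fell by 1.04 at 12 h, and Slc25a20, the carnitine carrier, fell by 1.37 at 72 h. Ppard, another PPAR, fell by 1.08 at 72 h and Cpt1b, the muscle form of carnitine palmitoyltransferase, fell by 1.02. Against sham, Angptl4 thus stood apart in direction from Pdk4 and from the called genes of this list. At 72 h the 2 genes higher at the unadjusted threshold were Lpl, by 1.98, and Gpihbp1, by 1.02, neither of them called. Between 12 h and 72 h, a step in which Angptl4 rose, limma called 3 of the 22 up and 4 down. The marker sums of fat cells at 3 h and 12 h, of smooth muscle at all 3 times and of epithelium at 72 h, given above, lay below those of sham, and their part in this list was not tested.

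Of 24 paralogs of the members, 5, 3 and 1 rose and 2, 4 and 2 fell at 3, 12 and 72 h. Among all genes well above background, 10.3%, 12.5% and 11.5% were called either way at these times. Other dual-specificity phosphatases rose beside Dusp1: Dusp8, Dusp5 and Dusp2 by 1.66, 1.46 and 1.45 at 3 h, Dusp2, Dusp5 and Dusp16 by 2.31, 2.15 and 1.28 at 12 h, and Dusp4 by 1.11 at 72 h. Dusp10 rose by 1.14 and Tsc22d2, a paralog of Tsc22d3, by 1.11 at 3 h. Pdk2 fell with Pdk4, by 1.21 at 3 h and by 1.98 at 12 h. Sgk2 fell by 1.73 at 72 h, and Hsd17b2, an enzyme that inactivates sex steroids, fell by 1.02 at 12 h and by 1.57 at 72 h. Angptl2 passed background on 3 sham arrays and on 0 arrays of 3 h and 12 h, which makes it at least 2.03-fold and 2.41-fold lower (adjusted p of 0.0185 and 0.000948), so the direction of Angptl4 was not that of this paralog; Angptl1 fell by 1.50 at 12 h.

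Of 12 inflammatory genes that the glucocorticoid receptor is known to repress, 11 rose at each time by limma and 0 fell, while 12, 11 and 11 were higher and 0 lower at an unadjusted p under 0.05, with medians of 4.80, 5.46 and 4.21. Cxcl2, a chemokine for neutrophils, was not well above background on any sham array and was at least 295-fold, 927-fold and 278-fold higher at 3, 12 and 72 h. Cxcl1 rose by 8.58, 7.96 and 7.16, Il6 by 7.61, 6.75 and 7.20 and Il1b by 6.74, 8.35 and 7.36. The exceptions were Mmp9 at 3 h and Il12b at 12 h and 72 h, named after their values were seen. The receptor-repressed genes and Dusp1, Fkbp5 and Angptl4 were thus high together at 3 h.

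**Figure D5:**
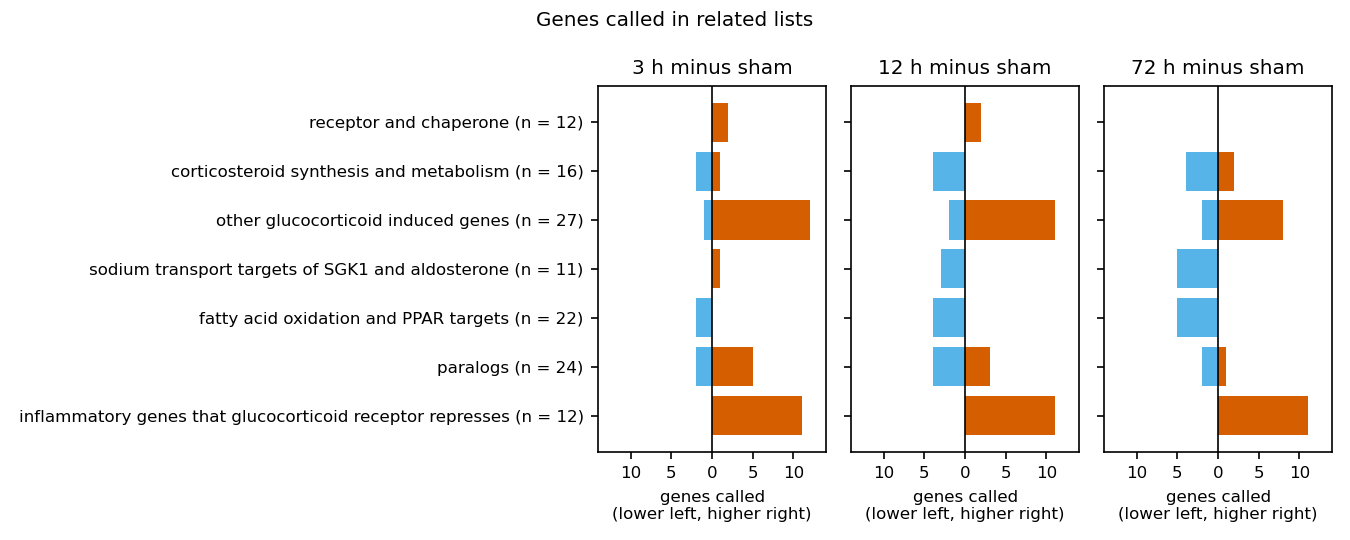
Number of genes called higher (orange, to the right of 0) and lower (blue, to the left) than sham at 3, 12 and 72 h in each list, with n the measured genes other than the 9 members. Inflammatory genes were higher at all 3 times (11 of 12), and the fatty acid oxidation list had genes called lower (2, 4 and 5) and none higher. Among all genes well above background, 10.3%, 12.5% and 11.5% were called either way.

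For each member called against sham, the 3 genes of most like pattern were sought among 20818 genes well above background on all 12 arrays, by the root mean square difference of log2 values centred on their sham mean. Fkbp5 was nearest to Cish (0.21), a feedback inhibitor of cytokine receptors, Cdkn1a (0.24), a cell cycle inhibitor, and Alas1 (0.27), the first enzyme of heme synthesis. Dusp1 was nearest to the immediate early gene Nr4a1 (0.37), the complement receptor gene C5ar2 (0.45) and Olr1 (0.49), a receptor for oxidised LDL. Hsd11b1 was nearest to Igfbp5 (0.25), an IGF-binding protein, Kcnk13 (0.34) and Pmepa1 (0.36). Angptl4 was nearest to Ctla2a (0.23) and Ctla2b (0.24), near-identical genes whose probes may share signal, and to BE944806 (0.44). Pdk4 was nearest to Rnf208 (0.28), Celf3 (0.35) and Hhatl (0.36), and Sgk1 to a transcript listed as ENSMUST00000140773 (0.20), Ybx2 (0.25) and Gm2061 (0.27).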

How the data were processed

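RNA of 12 cecum samples was hybridised to Agilent SurePrint G3 Mouse GE v2 arrays, 1 colour. The authors deposited Feature Extraction 11.5.1.1 files, whose processed signals are background-subtracted spot intensities, and a table of log2 values. Set against the scanner files, the deposited log2 table held 75th-percentile-scaled values centred on each probe's median (Pearson r = 0.99997, array medians -0.18 to 0.13); it served as an alternative.

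From the intensities, control and outlier spots were left out, spots of a probe were averaged as log2, and each array's 75th percentile over probes was subtracted. The probe of a gene with the highest mean was its main probe. limma 3.58.1 (R 4.3.3) was fitted to all 56605 probes with 4 group means, adjusted over all probes; percentages of genes use 1 probe for each of 37074 names. Well above background is the scanner software's flag. The fit was tested on simulated data. The number of arrays limits the precision. Marker sums add the linear levels of the main probes. From each list up to 4 called genes of largest change at a time were named, with those called against its direction and the 3 genes nearest in pattern to each called member; others were named after their values were seen. Some genes that this rule names are not reported here. The members and lists were chosen with earlier results of these data known. Promoter positions are GRCm38.p6 and probe positions mm9. Alternatives covered scaling, background, filters, blocks, probes and left-out arrays.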

Additional observations from a re-analysis of the deposited data

Results flagged for a closer look

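The change from sham differed between neighbouring times by more than 2-fold, with an adjusted p under 0.05 in the limma test of the difference itself, for 5 of the 9 genes. From 3 h to 12 h Hsd11b1 rose by 1.01 (adjusted p = 0.0243), Fkbp5 differed by -1.45 (adjusted p = 0.00239) and Pdk4 by -1.05 (adjusted p = 0.0171). From 12 h to 72 h Dusp1 differed by -1.29 (adjusted p = 0.003) and Angptl4 by 1.07 (adjusted p = 0.0469). Over all genes, 1.89% were called higher and 1.56% lower from 3 h to 12 h. From 12 h to 72 h these shares were 4.33% and 3.19%.

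The step of Fkbp5 was called under every alternative run except the methods' paired t-test, which called 1 of all genes in that step. The step of Hsd11b1 was 0.95 without 3 h replicate 2, 0.93 without 3 h replicate 3, 0.97 without 12 h replicate 1 and 0.96 without 12 h replicate 2, with adjusted p of 0.0832, 0.0709, 0.0775 and 0.069, and was then not called. That of Pdk4 was -0.83 without 3 h replicate 1, -1.06 without 3 h replicate 2 (adjusted p = 0.0523) and -0.95 without 12 h replicate 3. That of Angptl4 was 0.64 without 72 h replicate 1. The steps to 72 h lie mostly across the slides and were -1.01 for Dusp1 and 0.90 for Angptl4 with the slide as a block, neither called.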

How the results depend on the processing

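Under 26 alternatives, the 45 differences of the members gave 1170 values. Of these, 1107 stayed on their side of the call, 60 lost it and 3 gained it. Counting only differences called in the main fit or in the alternative, 0 changed sign. Differences called in neither could change sign, as Hsd11b2 at 72 h did, from -0.31 to 0.02 with the slide as a block. The numbers of members called (4, 5, 5, 3 and 2 in the order 3 h, 12 h and 72 h against sham, 12 h against 3 h and 72 h against 12 h) ranged over 3 to 4, 4 to 5, 5 to 5, 1 to 3 and 1 to 2 when each array was left out in turn. From 12 h to 72 h the count was 0 with the slide as a block and 1 in the fit of only the 2 groups and with 72 h replicate 3 alone in its group, an alternative chosen after seeing the data; from 3 h to 12 h it was 1 after normexp background correction. The methods' paired t-test, named there for 2 groups in general, gave 4, 4, 5, 3 and 1 members past 2-fold at an unadjusted p under 0.05. After adjustment it called 0 members in each comparison, and 0, 0, 0, 1 and 0 of all genes. The calls lost under it, which are among the 60, therefore say nothing about the members in particular. The replicate numbers do not pair the mice (deviations of same-numbered arrays correlated between -0.16 and 0.09), and with the replicate block 1 member was called from 12 h to 72 h, Angptl4 being lost (adjusted p = 0.0668), with no other call changed. The Hsd11b1 against Hsd11b2 shift of -0.33, 1.44 and 2.48 ranged over -0.52 to -0.17, 1.24 to 1.60 and 2.29 to 2.65 when arrays were left out. Sgk1 was -0.57 at 12 h and -0.84 at 72 h in the mean of all its probes, 1 of which is not above background. Of all 37074 genes, 1282 were called from 3 h to 12 h and 2788 from 12 h to 72 h. All genes called at 3, 12 and 72 h numbered 2732, 3360 and 3282, and 838, 1327 and 1258 after normexp; at 72 h they were 1152 with the slide as a block, and with 72 h replicate 3 alone 2191. The call of Pdk4 at 3 h was lost below 2-fold with each of the 2 arrays named above left out, and the steps of Hsd11b1 and Pdk4 lay near both thresholds.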
